A study of Mus musculus with 16 samples.

Results

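Mature Ccr7 Fscn1 dendritic cells were followed across 4 groups of mouse B16 melanomas that differed in the genotype of the implanted tumour cells and in treatment with an agonist antibody against CD40. A barcode of the deposited single-cell count matrices was kept when it held at least 200 genes and at most 10% of its UMIs (unique molecular identifiers, 1 per captured transcript) on mitochondrial genes. A kept barcode was a member when it held at least 1 UMI of Ccr7, at least 1 UMI of Fscn1, 0 UMIs of Cd3d, Cd3e and Cd79a, and at most 5 UMIs of C1qa, C1qb and C1qc together. Of 116552 barcodes 99357 were kept, and 1260 of them, 1.27%, were members. The 5 genes that marked the cells in advance were Ccr7, Fscn1, Ccl22, Il4i1 and Cacnb3. Because measured counts of Ccr7, Fscn1, Cd3d, Cd3e, Cd79a and the C1q genes chose the members, the levels of these genes are given as a description only.

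C57BL/6J mice received 1000000 control or B2m-null Bro4.1 B16 cells under the skin. On days 6, 9 and 12 they were injected intraperitoneally with 100 µg of anti-CD40 or of rat IgG2a isotype antibody, and tumours were taken on day 14. Groups are named below by the genotype of the implanted cells, control or B2m-null, as the design text gives it, followed by isotype or CD40 for the antibody. The sample labels write the B2m knockout beside the mouse strain. In the members, which are host cells under the design text, B2m stood at 4582 and 4564 CPM (UMIs per 1000000 UMIs of the pooled members) in the control isotype pools and at 4207 and 4003 in the B2m-null isotype pools. Mouse age and sex were not given in the sources used here. All cells had passed a magnetic bead selection for the leukocyte marker CD45, so that each share below is a share of bead-selected cells and not of the tumour. Mice of a group were marked with hashtag antibodies and pooled on a lane, and there were 2 pools for each group except control CD40, whose 2 lanes were technical replicates of 1 pool and were joined.

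Conventional dendritic cells sample antigen in tissues as cDC1, which are adept at presenting antigen to CD8 T cells, or as cDC2, which mostly present to CD4 T cells. On maturation either kind lowers antigen uptake, raises costimulatory molecules and the chemokine receptor CCR7, and moves toward the T cell zone of the draining lymph node along gradients of CCL19 and CCL21. CD40 on dendritic cells is bound by CD40 ligand on helper T cells, and an agonist antibody imitates this licensing signal through NF-kB. Cells of this state found inside tumours carry both activating and inhibitory molecules, among them CD80, CD86, PD-L1 and IL-12.

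The lanes held 12894 to 17666 barcodes, of which 80.2% to 90.8% were kept. Between 41 and 92 barcodes were shared by any 2 lanes (70 by the technical lanes of control CD40), and 0 member barcodes were shared. Hashtags assigned 809 members to 16 mice, 82 members were hashtag doublets and 369 had no call. The labels list 3 hashtags a pool, but 6 of the 8 lanes' matrices hold 2, and each hashtag present was taken as 1 mouse. The B2m-null isotype pool 1 stood apart in this, with 21.9% of its barcodes assigned against 62.4% to 90.8% in the other lanes. Results by pool use all members, and results by mouse use the assigned ones. The median member held 3063 UMIs under isotype and 3116 under CD40. The p-values below are over mice, which partly share a pool and lane.

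The members carried the programme of mature dendritic cells on the genes that did not choose them. Levels are CPM over the pooled isotype cells, counted at the transcript's 3′ end. Ccl22, a chemokine that draws CCR4-bearing T cells, stood at 1768 in members, 28.2 in cDC1, 34.5 in cDC2 and 33.3 in all other kept cells. Il4i1, a secreted amino acid oxidase, stood at 441.9 in members and 12.2 in other kept cells. Cacnb3, a calcium channel subunit, stood at 490.7 in members and 8.30 in other kept cells. All 3 of the marker genes outside the rule were therefore present at a multiple of their level elsewhere. Ccr7 itself was at 2085 in members and 44.8 in other kept cells, and Fscn1, an actin-bundling protein of dendritic processes, was at 1722 and 22.7.

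**Figure D1:**
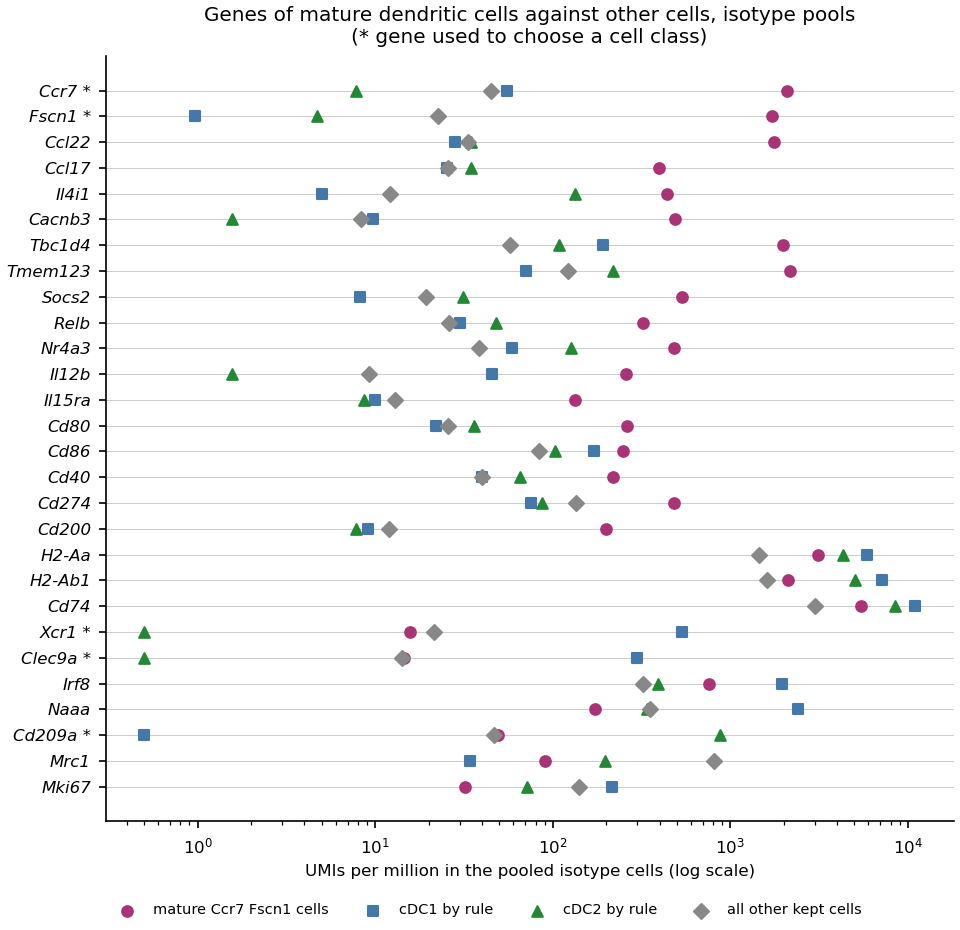
Levels of 28 genes in pooled isotype cells, in CPM on a log axis, for the mature Ccr7 Fscn1 cells, for cDC1 and cDC2 chosen by rule, and for all other kept cells. Levels under 0.5 are drawn at 0.5. Mature cells stand far to the right for Ccl22 (1768) and Tbc1d4 (1990) and to the left of cDC1 for H2-Ab1 (2111 against 7195).

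Genes of the mature state outside the marker set moved with them. Tbc1d4, a Rab GTPase-activating protein, was at 1990 in members and 57.4 in other kept cells. Tmem123 was at 2165 and 122.5, and Socs2, a suppressor of cytokine signalling, at 534.1 and 19.4. Relb, the transcription factor of the noncanonical NF-kB pathway, was at 323.9 and 25.96, and the nuclear receptor gene Nr4a3 at 482.5 and 38.5. These are contrasts of chosen cells with the rest and carry no test.

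Several activating and inhibitory molecules had higher levels in the members than in cDC1 under isotype, and others did not: Cd48 was at 127.5 in members and 273.8 in cDC1, and Havcr2 at 18.8 and 111.4. The costimulatory ligand gene Cd80 was at 260.7 in members, 22.0 in cDC1 and 36.0 in cDC2, and Cd86 was at 247.5, 170.2 and 103.4. Cd40, the receptor for the injected antibody, was at 218.4 in members and at 39.8 in both cDC1 and other kept cells. Il12b, the p40 subunit of IL-12, was at 258.5, 45.3 in cDC1 and 1.57 in cDC2. On the inhibitory side Cd274, which encodes PD-L1, was at 484.9 in members against 75.6 in cDC1, and Cd200 was at 199.0 against 9.07. Il15ra, which presents IL-15 to neighbouring lymphocytes, was at 133.6 against 10.0. Ccl19 was at 3.45, and Ido1, a tryptophan-degrading enzyme, was at 1.29.

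Summed over their lists, genes of the immature lineages were lower in the members than in the cells that define them. The sums were 1287 against 8621 CPM for 14 cDC1 genes and 588.2 against 3322 for 14 cDC2 genes. These lists hold genes that chose the classes, and the sums do not speak for each gene. cDC1 were chosen by at least 2 UMIs of Xcr1 and Clec9a with 0 of Cd209a, and cDC2 by Flt3 and Cd209a with 0 UMIs of Xcr1 and Clec9a. There were 1003 of the former and 279 of the latter. Naaa, an acid amidase abundant in cDC1, was at 172.8 in members and 2415 in cDC1, and Irf8, the transcription factor needed for cDC1, was at 759.8 against 1954. The cells chosen as cDC2 also carried plasmacytoid genes such as Siglech (204.5) and Tcf4 (704.4), and are named by their rule only. The MHC class II genes H2-Aa, Cd74 and Ciita were lower in members than in either class, but Ctss, a protease of the class II pathway, was at 983.1 in members, 719.4 in cDC1 and 1338 in cDC2. H2-Aa was at 3100 in members, 5922 in cDC1 and 4299 in cDC2, and Cd74, the invariant chain, was at 5412, 11000.0 and 8498. The class II transactivator gene Ciita was at 73.6, 248.1 and 271.1. The proliferation marker Mki67 was at 31.9 in members and 215.4 in cDC1, and the mannose receptor gene Mrc1 was at 90.6 in members and 806.4 in other kept cells.

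Cells near the rule's edges carried Ccl22 to different extents. A total of 38 members held exactly 1 UMI each of Ccr7 and Fscn1, and Ccl22 was seen in 39.5% of them against 69.8% of the other 1222. Just outside, 695 kept cells held Ccr7 but no Fscn1 and showed Ccl22 in 32.4%, and 629 held Fscn1 but no Ccr7 and showed it in 11.6%. A further 375 cells met the rule but for a Cd3d or Cd3e UMI, with a median of 7460 UMIs and Ccl22 in 71.5%. Another 245 cells failed only on C1q, with a median of 9196 UMIs and Ccl22 in 63.7%. The last 2 kinds were deeper than members, as were the cells with Fscn1 but no Ccr7 (median 6824 UMIs), and the rule left them out. Medians were 1852 UMIs in the 38 members, 3115 in the 1222 and 2516 in the cells with Ccr7 but no Fscn1. These shares were not thinned to equal depth, so that depth and kind of cell are mixed in them.

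Members differed among themselves in which chemokines and cytokines they held. To compare cells of unequal depth, cells under 1000 UMIs were left out and shares were computed for each remaining cell thinned to 1000 UMIs. Ccl22 was seen in 52.4% of isotype members thinned in this way (68.7% unthinned), against 3.00% of T cells, a class that should lack it. Ccl17, which encodes the other CCR4 ligand, was seen in 12.6% (21.7% unthinned) against 1.25% of T cells. Il12b was seen in 13.5% of members and 0.796% of T cells. The median depth was 3063 UMIs in isotype members and 5496 in T cells.

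Ccl17 was found mainly in cells that also held Ccl22. Of 834 isotype members with at least 2000 UMIs, each thinned to that number, 170 held Ccl17, and 94.1% of these held Ccl22. Among the 664 without Ccl17 the share was 58.3%. The difference had the same direction in all 4 isotype pools, where the shares with Ccl17 ran from 91.3% to 96.0% and those without from 55.4% to 62.8%. Il12b went with Irf8 in a like manner: 76.4% of 148 Il12b-bearing members held Irf8 and 54.4% of the other 686 did. Irf4, which is tied to cDC2, was seen in 5.14% of Irf8-bearing members and in 10.1% of the others. These are shares of cells pooled over mice and were not tested.

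The mean share of members among kept cells was lower in CD40 agonist than in isotype tumours, and the share within conventional dendritic cells overlapped between them. The 5 control isotype mice held 2.02, 2.72, 1.59, 1.53 and 3.01% members among kept cells, and the control CD40 mice held 0.0791 and 0.0845%. No control CD40 mouse reached the lowest isotype mouse, and the means were 2.17% ± 0.666 (SD, n = 5) and 0.0818% ± 0.00382 (SD, n = 2), a 26.6-fold gap. The two-sided exact permutation test gave p = 0.0952 (adjusted 0.356 over 8 share tests), the smallest value that 2 against 5 mice allow. In B2m-null tumours the 5 isotype mice held 2.91, 4.99, 0.680, 2.72 and 1.96%, and the 4 CD40 mice held 0.703, 0.349, 0.105 and 0.196%. The groups overlapped only through the isotype mouse at 0.680%, which rests on 3 members of 441 cells. The highest isotype mouse, at 4.99%, rests on 17 members of 341 cells of the same pool. The means were 2.65% ± 1.57 (SD, n = 5) and 0.338% ± 0.263 (SD, n = 4), a 7.83-fold gap with an exact permutation p of 0.0317 (adjusted 0.254).

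By pool, with exact Clopper-Pearson 95% intervals that cover counting error only, members made up 1.94% (1.73 to 2.16) and 2.05% (1.78 to 2.33) of kept cells in control isotype and 0.0755% (0.0461 to 0.117) in control CD40. They made up 3.25% (2.94 to 3.58) and 2.198% (1.94 to 2.48) in B2m-null isotype and 0.476% (0.355 to 0.626) and 0.126% (0.0704 to 0.207) in B2m-null CD40. The exact permutation p of 0.0317 rose above 0.05 when any 1 of 7 of the 9 mice was left out, with differences of -1.73 to -2.48 percentage points in those 7 cases, and with Ptprc-bearing cells as the denominator (p = 0.0794). A share of bead-selected cells can fall because other cells rose, and fewer cells cannot be told apart here from more of another type.

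**Figure D2:**
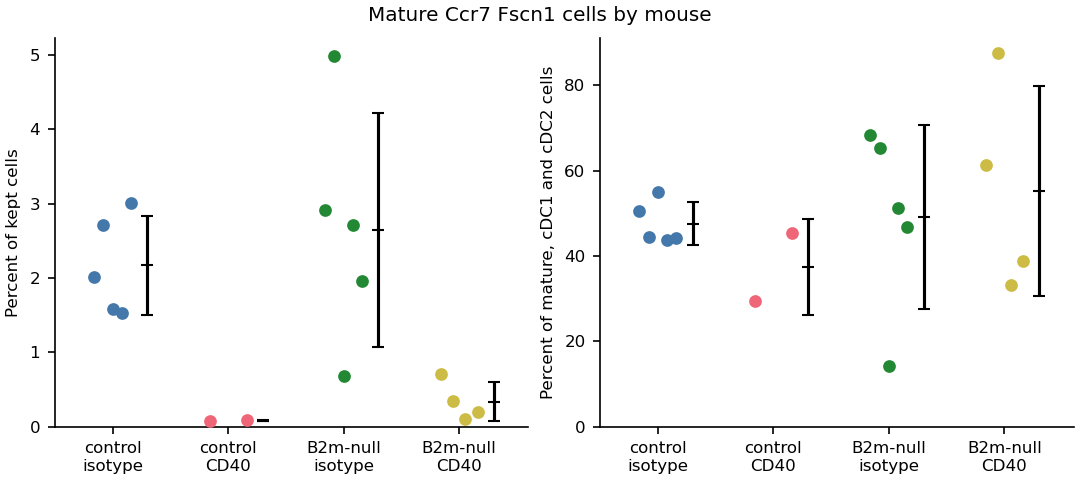
Mature Ccr7 Fscn1 cells by mouse, as percent of all kept cells (left) and as percent of mature, cDC1 and cDC2 cells together (right). Each point is a mouse, and bars give the mean and SD. On the left the control CD40 mice (0.0791 and 0.0845%) lie below every isotype mouse, and on the right the groups overlap.

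Within conventional dendritic cells, that is members, cDC1 and cDC2 together, members made up 47.6% ± 5.01 (SD, n = 5) in control isotype mice and 29.4 and 45.5% in the 2 control CD40 mice. They made up 49.2% ± 21.5 (SD, n = 5) in B2m-null isotype mice and 55.2% ± 24.7 (SD, n = 4) in B2m-null CD40 mice. Exact permutation tests gave p = 0.381 in control and 0.698 in B2m-null tumours. The CD40 pools held 51, 80 and 42 conventional dendritic cells in all, which limits what shift could be detected. cDC1 were also a smaller share of kept cells under CD40 agonist, 1.02 to 3.3% in the isotype mice of both genotypes and 0.0498 to 0.407% in the CD40 mice. Between tumour genotypes under isotype the mean share of kept cells was 0.478 percentage points higher in B2m-null tumours (exact permutation p = 0.595). Under CD40 it was 0.256 points higher and mice did not overlap (exact permutation p = 0.133, the smallest value 4 against 2 mice allow, so that the design could not reach 0.05).

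Expression was compared over mice with at least 10 assigned members, which left 5 and 4 isotype mice with control and B2m-null tumours and 1 and 2 CD40 mice, with edgeR's quasi-likelihood test on summed UMIs and Benjamini-Hochberg adjustment over the 6465 genes tested. Each value by mouse is in CPM after TMM normalisation, and a call is an adjusted p under 0.05. The lone control CD40 mouse is assumed to vary like the mice of the other groups. Both B2m-null CD40 mice came from pool 1, so that pool 2, with 7 members in each of its 2 mice, entered no fit and is given beside the calls. Comparisons that share a group of mice are not independent of each other.

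Apol7c, an apolipoprotein L family gene of activated dendritic cells, rose with CD40 agonist in both tumour genotypes. Its level was 143.8, 59.2, 161.8, 18.9 and 61.7 in the control isotype mice and 824.3 in the control CD40 mouse. It was 56.2, 20.2, 83.1 and 89.4 in the B2m-null isotype mice and 523.2 and 632.2 in the B2m-null CD40 mice. Every CD40 mouse lay far above every isotype mouse. The log2 change was 3.3 ± 0.56 (SE) in control tumours (adjusted p = 0.0284) and 2.90 ± 0.47 in B2m-null tumours (adjusted p = 0.000881). Pool 2 of B2m-null CD40, in no fit, stood at 282.0 against 54.4 and 78.4 in the B2m-null isotype pools.

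Apol7c was near 0 outside the members. Other kept cells held 1.30 to 2.17 CPM of it in all 4 groups, cDC1 held 0.162 and T cells 4.36 under isotype. It was seen in 9.46% of isotype members and 34.9% of CD40 members, or 4.73 and 20.8% at 1000 UMIs, against 0.226% of T cells. Without the B2m-null CD40 mouse 2 the change in B2m-null tumours was 2.76 with an adjusted p of 0.0540, and with pools as the unit the change in control tumours was 3.25 with an adjusted p of 0.125.

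In control tumours 4 genes were called, all 4 higher under CD40 agonist (0.0619% of genes tested), and with no filter on low counts 5 were higher and 6 lower. The median of all genes was a log2 change of -0.39, and -0.22 with RLE size factors. Besides Apol7c these were Gas5, a noncoding RNA that hosts small nucleolar RNAs, and the ribosomal protein genes Rps29 and Rpl37a. Gas5 was at 404.5 to 615.2 in the control isotype mice and 1410.0 in the CD40 mouse, a log2 change of 1.47 ± 0.27 (adjusted p = 0.0292). It was 444.3 to 578.3 in the B2m-null isotype mice and 1525 and 1180.0 in the CD40 mice (1.33 ± 0.21, adjusted p = 0.000676), but 434.7 in pool 2. In other kept cells Gas5 stood at 270.9 and 538.0 in control isotype and CD40 and at 294.0 and 307.6 in the B2m-null groups. Rps29 and Rpl37a differed likewise outside the members: Rpl37a was at 1790.0 in other kept cells of control isotype and 4519 in those of control CD40, and Rps29 at 876.2 and 2123. Several marker sums of other cells in the control CD40 mouse lay outside the range of its isotype mice, and the neutrophil, melanoma and mast cell sums did not. The plasmacytoid sum was 283.5 against 479.4 to 697.0, and the fibroblast and endothelial sum 0 against 64.8 to 397.3. The macrophage and monocyte sum was 567.0 against 835.0 to 2305, the T and NK sum 21.8 against 79.5 to 318.4, and the B and plasma cell sum 130.9 against 22.2 to 89.0, and their part in the calls was not tested. Without control isotype mouse 3 of pool 1, or without control isotype pool 1, 1 gene was called in place of 4, and the counts without B2m-null isotype pool 1 mouse 2, without B2m-null isotype pool 1 or 2, and without control isotype pool 2 were 9, 11, 13 and 8.

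In B2m-null tumours 85 genes were called, 45 higher and 40 lower under CD40 agonist (1.31% of genes tested). The higher genes included Cd40, H2-Ab1, Gbp2 and Ptgs2, and the lower ones included Tbc1d4, Il7r, Stxbp6 and Rel. The median of all genes was a log2 change of -0.15, and with DESeq2's or RLE size factors it was -0.02. With RLE 80 genes were higher and 33 lower, with DESeq2 79 and 32, with limma-voom and a lane block 99 and 28, and with no filter on low counts 82 and 140. The calls rest on 2 CD40 mice: 30 genes were called without mouse 1 and 16 without mouse 2, and 134 without B2m-null isotype pool 1 mouse 2.

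Pool 2 of B2m-null CD40 gave a reading from mice outside the fit. Of the 45 genes called higher, 29 stood above both isotype pools in pool 2 (64.4%), 12 below both and 4 between. Of the 40 called lower, 32 stood below both (80.0%), 6 above both and 2 between. Of all genes tested 34.2% stood above both and 51.9% below both. The isotype mice of these pools also chose the genes, so that the counts are a description and no independent check. Pool 2 held 15 members. With mice of at least 5 members, which lets pool 2 in, 121 genes were called, 66 higher and 55 lower. The control CD40 pool, which shares no mice with these groups, stood above both control isotype pools for 21 of the 45 (46.7%) and below both for 19, and of the 40 it stood below both for 18 (45%) and above both for 13. Of all genes it stood above both for 35.5% and below both for 54.3%, so that the 18 of 40 were under the share of all genes.

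Among the genes that were higher in pool 2 as well were Cd40, H2-Ab1, Icam1 and H2-M2. Cd40 was at 353.4, 141.4, 257.7 and 244.4 in the B2m-null isotype mice and 508.2 and 716.5 in the CD40 mice, a log2 change of 1.21 ± 0.29 (adjusted p = 0.0277). Pool 2 stood at 787.1 against 217.5 and 219.4 in the isotype pools. The receptor of the agonist was thus higher in all B2m-null CD40 readings, while the control CD40 mouse, at 260.3, lay inside the range of its isotype mice (213.1 to 342.9). The test of the difference between genotypes gave 1.21 ± 0.54 with an adjusted p of 0.552.

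H2-Ab1, the class II beta chain, was at 1696 to 2325 in the B2m-null isotype mice and 3797 and 4151 in the CD40 mice (0.88 ± 0.19, adjusted p = 0.0125), and pool 2 was at 4041. Icam1, an adhesion molecule of the T cell contact, was at 101.0 to 164.9 and then 358.7 and 400.4 (1.35 ± 0.28, adjusted p = 0.00918), with pool 2 at 246.7. H2-M2, a class I-like gene, was at 0 to 61.1 and then 194.3 and 463.6 (2.81 ± 0.45, adjusted p = 0.000872), with pool 2 at 105.7 and the control CD40 mouse at 108.5 against 15.7 to 38.1 in its isotype mice. In other kept cells H2-M2 was at 3.35 under B2m-null isotype and 30.8 under B2m-null CD40, Cd40 at 30.2 and 50.6, Icam1 at 36.6 and 66.9 and H2-Ab1 at 1437 and 1909. Cd80, by contrast, had its lower levels under CD40 in every pool, 125.5, 132.9 and 141.0 against 242.5 to 284.7 in the isotype pools. Its estimate of -1.56 ± 0.40 in B2m-null tumours missed the call (adjusted p = 0.0509), as did -1.48 ± 0.56 in control tumours (adjusted p = 0.619). Cd86 and Cd274 were not called either.

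**Figure D3:**
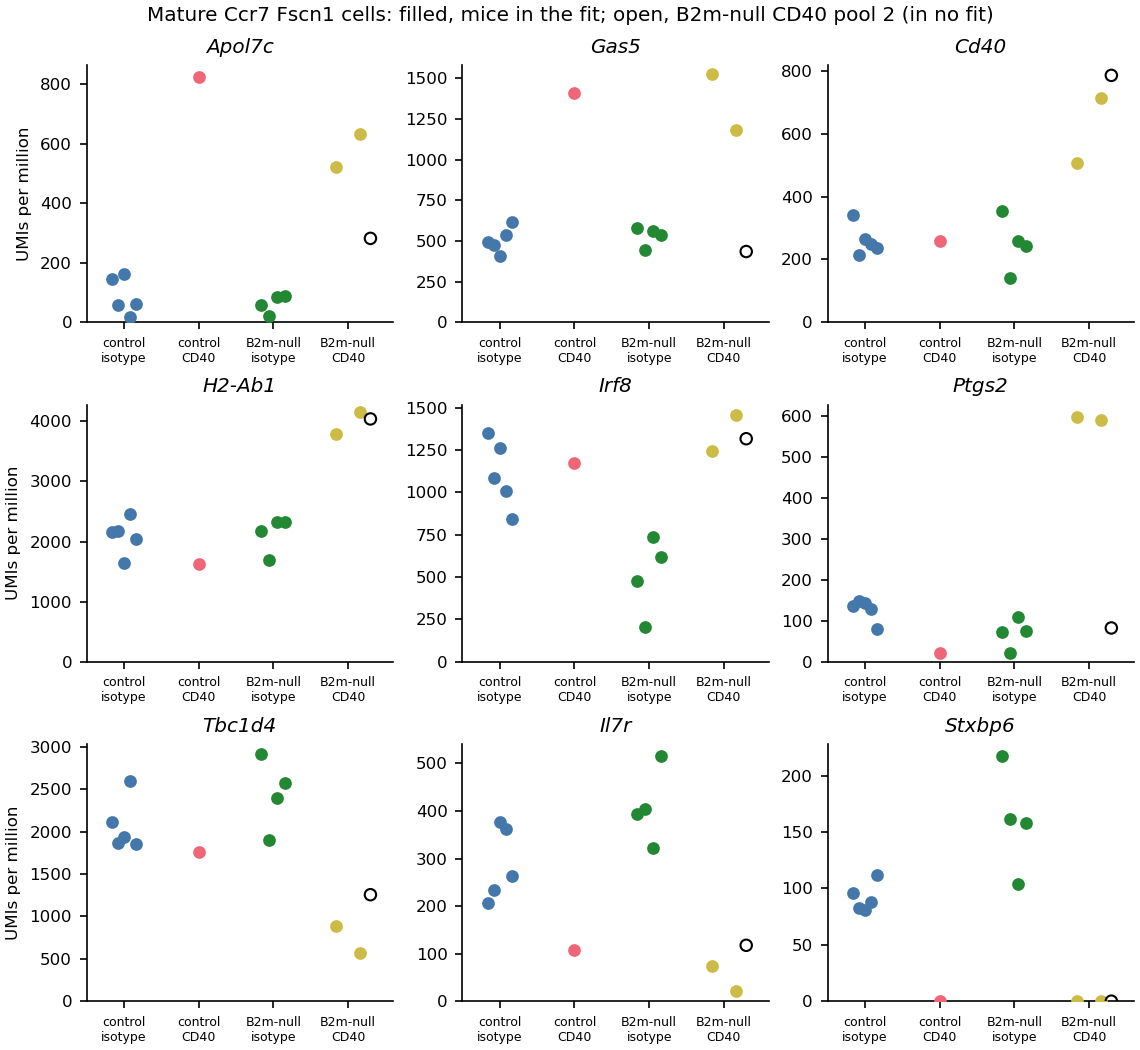
Levels of 9 genes in mature Ccr7 Fscn1 cells, in CPM on axes that start at 0. Filled points are mice in the fit (TMM-normalised), and the open circle is B2m-null CD40 pool 2, which is in no fit and not normalised. Apol7c is high in all CD40 readings, Ptgs2 is high in the B2m-null CD40 mice of pool 1 alone, and Stxbp6 is at 0 in all CD40 readings.

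Other called genes were high in pool 1 and not in pool 2. Ptgs2, which encodes the prostaglandin enzyme COX-2, was at 72.3, 20.2, 108.7 and 74.5 in the B2m-null isotype mice and 597.9 and 590.0 in the CD40 mice (2.79 ± 0.32, adjusted p = 2.64e-05), but 82.2 in pool 2. Il27, which encodes the p28 subunit of the cytokine IL-27, was at 0 to 6.11 and then 104.6 and 147.5, with 0 UMIs in pool 2. Cfb and C3, complement components, and Clec4e, a receptor for microbial glycolipids, were at 23.5, 23.5 and 11.8 in pool 2 and at 272.2, 208.9 and 234.2 in pool 1. The B2m-null isotype pools held Cfb at 12.8 and 21.1, C3 at 56.5 and 23.1 and Clec4e at 56.5 and 34.9. Pool 2 thus lay near or below the isotype pools for these genes.

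Levels of these genes in other kept cells were also read. Cfb was at 42.7 under B2m-null isotype and 211.4 under B2m-null CD40, Ptgs2 at 166.0 and 222.9, Il27 at 4.12 and 10.4, C3 at 53.0 and 216.5, Clec4e at 88.7 and 219.3, and Ly6i, a Ly6 family gene called at 4.82 ± 0.74 in members, at 8.41 and 161.1. Of the 45 genes called higher, 12 were lower in the members of that group than in other kept cells. The summed level of 12 macrophage and monocyte markers was 2144 and 3483 in the B2m-null CD40 mice and 688.4 to 2919 in the isotype mice, and Lyz2 (1.69) and Ctsd (1.55) of that list were called. The summed level of 13 T and NK cell markers in members was 1253 in pool 1, 47.0 in pool 2 and 150.9 to 185.6 in the isotype pools. None of these markers was at 0 over all members, and their part in the calls was not tested.

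Of 19 tested genes of the interferon-gamma response, 3 rose, 0 fell, and 89.5% had a positive estimate, with a median log2 change of 1.24. Of all genes tested 1.31% were called and 43.0% had a positive estimate, with a median of -0.15. Gbp2, a guanylate-binding protein of cell defence, changed by 1.42 ± 0.30 (adjusted p = 0.0125) and stood at 506.3 and 516.9 in the CD40 pools against 230.3 and 227.3 under isotype. Irgm1, an immunity-related GTPase, changed by 2.36 ± 0.46, with 151.9 in pool 1 and 23.5 in pool 2. Irf1, a transcription factor of the response, changed by 1.14 ± 0.28. Of 22 interferon-stimulated genes 1 rose, Isg15 (1.37 ± 0.32, adjusted p = 0.0277), at 525.3 and 552.2 against 262.3 and 197.7, and their median was 0.97. The summed level of the interferon-stimulated list overlapped between the groups, with 2556 and 3008 in the CD40 mice and 1254, 2801, 1305 and 1356 in the isotype mice. In other kept cells Gbp2 was at 129.3 under isotype and 336.0 under CD40, Irf1 at 62.1 and 127.0, and Isg15 at 127.9 and 249.2. The chemokine genes Cxcl9 and Cxcl10 had estimates of 2.31 and 2.15 that missed the call (adjusted p = 0.0791 and 0.108).

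Of 17 tested genes of a list of other mature dendritic cell genes, 1 rose (Apol7c) and 2 fell, Tbc1d4 and Samsn1, beside 1.31% of all genes called, 45 higher and 40 lower. Samsn1, an adaptor protein gene, changed by -1.09 ± 0.24 (adjusted p = 0.0175), with pool 2 at 657.9 against 883.0 and 794.0 in the isotype pools. Tbc1d4 was at 2916, 1898, 2400.0 and 2579 in the B2m-null isotype mice and 881.9 and 569.0 in the CD40 mice, a log2 change of -1.74 ± 0.25 (adjusted p = 0.000409). Pool 2 stood at 1257 against 2331 and 2097 in the isotype pools, and the control CD40 mouse at 1757 against 1851 to 2600 in its own. Il7r, the IL-7 receptor chain, was at 321.3 to 515.7 and then 74.7 and 21.1 (-2.95 ± 0.51, adjusted p = 0.00187), with pool 2 at 117.5 and the control CD40 mouse at 108.5 against 206.5 to 376.0. St8sia4, which builds polysialic acid, was at 323.1 to 586.4 and then 74.7 and 63.2 (-2.83 ± 0.44, adjusted p = 0.000551), with pool 2 at 235.0. Polysialic acid on CCR7 helps it sense CCL21. In other kept cells of B2m-null isotype and CD40, Tbc1d4 was at 64.5 and 14.95, Samsn1 at 61.8 and 46.1 and St8sia4 at 87.8 and 42.4. Il7r was at 139.4 and 146.4 in them.

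Stxbp6, a syntaxin-binding protein, had 0 UMIs in all 3 CD40 pools. It was at 67.4 and 95.6 in the control isotype pools and 164.2 and 101.5 in the B2m-null isotype pools, on 174 and 308 UMIs. Against 3 UMIs over the group this is at least 10.2-fold lower in B2m-null CD40 and at least 1.49-fold lower in control CD40, where 55787 member UMIs allow no more. It was called in B2m-null tumours (adjusted p = 0.00295) and not in control tumours (adjusted p = 0.557). In other kept cells Stxbp6 was at 11.5 under B2m-null isotype and 3.32 under B2m-null CD40.

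Of 22 CD40 and NF-kB signalling genes, 1 rose (Cd40) and 3 fell, beside 1.31% of all genes called. Rel, a canonical NF-kB subunit, was at 925.9 to 1365 in the B2m-null isotype mice and 612.9 and 484.7 in the CD40 mice (-0.97 ± 0.24, adjusted p = 0.0388), with pool 2 at 622.7. Nfkb1, the p105/p50 subunit gene, changed by -1.03 ± 0.26 (adjusted p = 0.0452), but stood at 775.4 in pool 2 against 587.6 and 650.3 in the isotype pools. Map3k14, the kinase of the noncanonical arm, changed by -2.46 ± 0.58 (adjusted p = 0.0277), and pool 2 at 235.0 lay above both isotype pools as well. Rel was thus the member of the 3 whose pool 2 was lower too. In other kept cells of B2m-null isotype and CD40, Rel was at 113.0 and 59.6, Nfkb1 at 170.2 and 132.9 and Map3k14 at 19.4 and 12.05. Of the other genes the naming rule gave, Adcy6 (-3.24), Rap2b (-2.46), Pcyt1a (-3.72), Hsf2 (-2.78), C9orf72 (-3.34), Vgll4 and Eno3 were lower. In that order they held 3, 6, 2, 3, 1, 0 and 1 UMIs over both CD40 mice, so that these sizes are poorly fixed. Their calls held in 23, 21, 23, 15, 9, 17 and 18 of 25 alternatives. Eno3 was at 235.0 in pool 2 against 81.0 and 103.4 in the isotype pools. Vcam1 (3.51) and Dram1 (2.60) were higher.

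**Figure D4:**
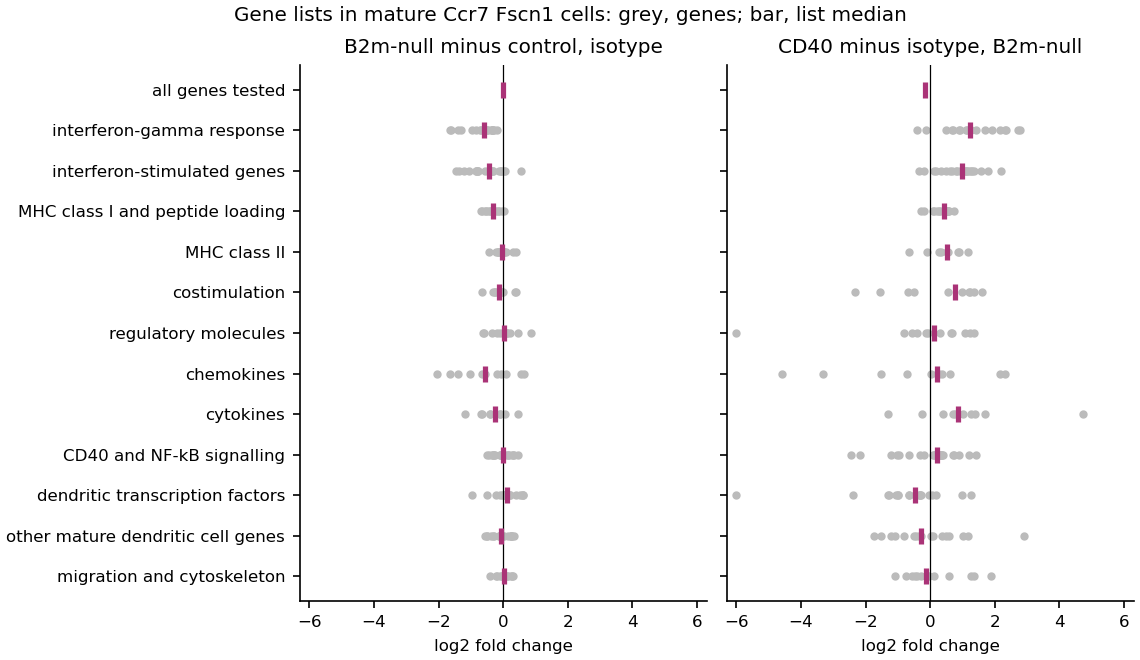
Log2 changes of tested genes in 12 lists (grey points) with each list's median (bar), for B2m-null against control tumours under isotype (left) and for CD40 against isotype in B2m-null tumours (right). Changes beyond 6 are drawn at 6. Every tested interferon-gamma response gene lies below 0 on the left (median -0.59), and the median is 1.24 on the right. Both panels use the B2m-null isotype mice.

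Under isotype alone 10 genes were called between the tumour genotypes, 8 higher and 2 lower in B2m-null tumours (0.155% of genes tested). With no filter on low counts 16 were higher and 48 lower. Irf8 was at 1349, 1086, 1261, 1006 and 842.8 in the control mice and 473.9, 201.9, 736.6 and 620.1 in the B2m-null mice. Every B2m-null mouse lay below every control mouse, and the log2 change was -0.97 ± 0.20 (adjusted p = 0.0472). In other kept cells Irf8 was at 383.5 in control and 261.4 in B2m-null isotype. The summed cDC1 lineage list, which holds Irf8, was at 1155 to 1854 CPM in the control isotype mice and 759.5 to 963.8 in the B2m-null isotype mice. Irf8 alone averaged 1109 and 508.1 in these mice, so that the sum is no separate reading. By pool, over all members, the sum overlapped, at 1610 and 1270 against 1343 and 1005. Under CD40 agonist Irf8 stood at 1171 in control and at 1241 and 1454 in B2m-null tumours, and in B2m-null tumours it was called higher than under isotype (1.25 ± 0.28, adjusted p = 0.0177). The test of the difference in CD40 effect between genotypes gave 1.17 ± 0.47 with an adjusted p of 0.534.

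Il2ra, the high-affinity chain of the IL-2 receptor that mature dendritic cells also carry, was at 92.2, 130.2, 90.4, 132.1 and 109.9 in control mice and 321.3, 141.4, 175.9 and 262.3 in B2m-null mice (1.02 ± 0.21, adjusted p = 0.0472). The groups did not overlap. T cells held 109.3 CPM of it under isotype, and the T and NK marker sum of the members overlapped between the groups, from 79.5 to 318.4 in the control isotype mice and from 98.4 to 308.5 in the B2m-null isotype mice. Its part in the Il2ra result was not tested. The other higher genes were the ribosomal protein genes Rps28, Rps29, Rpl38 and Rpl37a and the hemoglobin genes Hba-a1, Hba-a2 and Hbb-bs. Hbb-bs rested on 1 mouse, at 8.03, 0, 659.6 and 11.9 in the B2m-null isotype mice and 0 to 3.14 in control isotype. Both kinds were higher in other kept cells too: Hbb-bs was at 40.2 and 109.1 and Rpl37a at 1790.0 and 2690.0 in other kept cells of control and B2m-null isotype. The second lower gene was Fgl2, a secreted fibrinogen-like protein (-1.06 ± 0.22), at 334.0 and 176.4 in other kept cells of control and B2m-null isotype.

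Both Irf8 and Il2ra lay near the threshold. The count of 10 fell to 3 without control isotype mouse 1, 2 or 3 of pool 1, to 5 or 6 without B2m-null CD40 mouse 1, B2m-null isotype pool 1 mouse 1, pool 2 mouse 1 or pool 2 mouse 2, or control isotype pool 2 mouse 1, and to 0 (170 genes unadjusted) and 5 without control isotype pool 1 and B2m-null isotype pool 2. It rose to 19 without B2m-null isotype pool 1 mouse 2 and to 22 without all of that pool, where 312 of 394 members had no hashtag call. The direction of both genes held in all 28 alternatives each, and the call in 14 of 28 for Irf8 and 10 of 28 for Il2ra, with Irf8 between -1.51 and -0.68 and Il2ra between 0.75 and 1.23.

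Of 19 tested interferon-gamma response genes, 0 were called under isotype and 0% had a positive estimate, with a median of -0.59. Of all genes tested 0.155% were called and 48.1% had a positive estimate, with a median of -0.01. The summed level of the list was 3493, 3487, 2681, 2459 and 2455 in control mice and 1576, 1946, 2378 and 1537 in B2m-null mice, which do not overlap. Gbp2 was at 387.2 and 285.8 in the control pools and 230.3 and 227.3 in the B2m-null pools (-0.69 ± 0.21, adjusted p = 0.319), and Cxcl10 was at 371.6 and 274.3 against 73.6 and 96.9 (-1.64 ± 0.43, adjusted p = 0.188). In other kept cells Gbp2 was at 327.6 and 129.3 and Cxcl10 at 576.2 and 198.6.

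Of 16 MHC class I and peptide loading genes, 0 were called and 6.25% had a positive estimate, beside the same 48.1% of all genes, with a median of -0.33. Members of the class II (median -0.05), costimulation (-0.13), regulatory (0.01) and migration (0.01) lists were not called either. Further lists lay below 0 as well. Of 10 tested cDC1 lineage genes 10% had a positive estimate (median -0.87), and 1 was called, Irf8. Cell cycle genes had 5.56% positive of 18 tested (median -0.8), and interferon-stimulated genes 13.6% of 22 (median -0.43), with 0 called in either list. Ccl22 (0.54 ± 0.19, adjusted p = 0.473), Cd80 and Cd274 were not called. Ccr7 and Fscn1 chose the members, so that no test of them is read here.

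The effect of CD40 agonist differed by tumour genotype for 9 genes, 3 with a higher and 6 with a lower value in B2m-null tumours (0.139% of genes tested), in a test that has 1 control CD40 mouse. Among the 9 were Ccrl2, an atypical receptor that binds chemerin, Ptgs2, and Mreg, which takes part in the transport of lysosome-related organelles. Ccrl2 was at 21.7 in the control CD40 mouse (1 UMI) against 96.4 to 132.7 in the control isotype mice, and at 448.4 and 358.2 in the B2m-null CD40 mice against 64.3 to 80.8 under isotype. Mreg was at 433.9 against 157.1 to 250.7 in control tumours and at 59.8 and 42.1 against 181.7 to 226.0 in B2m-null tumours. Mreg was thus above all isotype mice in 1 genotype and below all in the other.

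The differences were 4.84 ± 0.79 for Ccrl2 (adjusted p = 0.00770), 5.28 ± 0.93 for Ptgs2 (adjusted p = 0.0114) and -3.14 ± 0.60 for Mreg (adjusted p = 0.0234). In pool 2 Ccrl2 stood at 141.0 and Mreg at 129.2, against 77.8 and 77.7 and against 202.6 and 198.3 in the B2m-null isotype pools. Ptgs2 in pool 2, at 82.2, lay below both isotype pools, at 119.4 and 87.6. The control CD40 mouse held 1 UMI of it, and with mice of at least 5 members, which lets pool 2 in, its difference of 4.98 was no longer called (adjusted p = 0.115). The same 3 genes were the 3 called between the genotypes under CD40 (0.0464% of genes tested), a comparison that uses the same CD40 mice. The split of the 9 was 7 higher and 30 lower with DESeq2, and that of the 3 was 5 and 4 with RLE and 8 and 20 with DESeq2. The count of 9 was 0 (591 genes at an unadjusted p under 0.05) without B2m-null CD40 mouse 1, 4 without mouse 2 and 31 without B2m-null isotype pool 1 mouse 2. The count of 3 was 0 (326 to 491 genes unadjusted) without any 1 of B2m-null CD40 mouse 2, B2m-null isotype pool 1 mouse 1 or pool 2 mouse 2, control isotype mouse 1 or 3 of pool 1, mouse 1 of pool 2, or control isotype pool 1, and 1 without B2m-null CD40 mouse 1. It was 10 without B2m-null isotype pool 1 or its mouse 2, 8 without B2m-null isotype pool 2 and 7 without control isotype pool 2.

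The CD40 effect in members was set beside that in cDC1 of the same mice, with the mouse as a block. In control tumours 14 of 7702 genes differed (0.182%), all with a lower change in members, and in B2m-null tumours 5 differed (0.0649%). Each comparison had 1 CD40 mouse with at least 10 cells of both classes. The spread came from the other groups, which that mouse is assumed to share, and the calls rest on it. In B2m-null tumours Serpinb6b, a protease inhibitor of the mature state (-2.92 ± 0.44), Cst3, a cysteine protease inhibitor of dendritic cells (-1.22 ± 0.15), and Aldh1a2 (-12.54 ± 2.52) had a lower change in members. Vim (2.02 ± 0.40) and Chil3 (10.85 ± 2.11) had a higher one. The B2m-null CD40 mouse held 19 members and 11 cDC1, so that the sizes for Aldh1a2 and Chil3 are poorly fixed. The genes called in control tumours included collagen genes with Sparc, Igfbp7 and Serping1, genes of stromal cells, and also Cxcl9 and Ctss. The stromal estimates ran from -15.36 (Serping1) to -12.7 (Igfbp7). In the members of the control CD40 mouse the summed fibroblast and endothelial markers were at 0, so that the size of these estimates is not fixed by counts. The count of 14 was 0 (518 genes unadjusted) without control isotype mouse 1 of pool 1 and 6 with RLE size factors. The count of 5 was 3 without B2m-null isotype pool 1 mouse 1 or pool 2 mouse 2, 10 without B2m-null isotype pool 2 mouse 1 or control isotype pool 1 mouse 1, and 8 without control isotype pool 2 mouse 2. No CD40 mouse held 10 cells of the cDC2 rule beside its members, so that the same test was not made for them.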

How the data were processed

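Suspensions of CD45 bead-selected tumour cells were run with 10x single cell 3′ v3 chemistry and feature barcoding, per the labels' protocols, and bcl2fastq 2.20.0.422, Cell Ranger 3.0.0 and the build mm10 are named in the submitters' processing notes. The deposited matrices hold raw UMI counts of 32285 genes and, in their last rows, of the hashtags (per the file headers). Members were chosen by the rule. Barcodes with at least 20 hashtag counts were hashtag doublets when 2 hashtags stood over 2.5 SD above background, and the others were assigned by a Gaussian mixture (posterior of at least 0.9). Then UMIs were summed by mouse for edgeR 4.0.16 (TMM, filterByExpr, quasi-likelihood F test, R 4.3.3). Standard errors are the log2 change over the square root of F. Steps were tested on simulated data. Simulated 2-fold changes were recovered for 0% of genes (CD40, control), 4% (CD40, B2m-null), 43% (genotype, isotype) and 2% (genotype, CD40). For 4-fold changes the shares were 19, 37, 82 and 11%. A gene that was not called can therefore still differ. No doublet caller was run beyond hashtags and the rule.

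Genes were named by a rule: in each comparison up to 10 called genes a direction with the largest change, with mice not overlapping, at least 50 CPM in the higher group and a level at least that of other kept cells, besides called genes of the lists. Fgl2, Rpl41, Dctn3, Map4k4, the hemoglobin genes, Cd80, Cxcl9 and Cxcl10 fall outside it or were chosen after their values were seen. The members and lists were chosen with earlier results of these data known. Alternatives were RLE, DESeq2 1.42.0, no filter, 20 or 5 cells a mouse, pools as the unit, stricter members, thinning to 2000 UMIs, limma-voom with a lane block, a replicate block and leaving out each mouse or pool. The alternative of 5 cells, and the reading of the pool in no fit, were chosen after seeing the data.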

Additional observations from a re-analysis of the deposited data

Results flagged for a closer look

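The effect of CD40 agonist differed between tumour genotypes, by edgeR's test of the difference itself, for 9 genes, in a test with 1 control CD40 mouse. The difference (B2m-null minus control, log2) was -3.14 for Mreg, -2.44 for Map4k4, -2.03 for Rps29, -1.8 for Rps28, -1.69 for Rpl37a and -1.48 for Rpl41. It was 4.84 for Ccrl2, 5.28 for Ptgs2 and 9.11 for Dctn3. Over 15 alternatives Dctn3 ran from 2.81 to 9.34 and kept its call in 3, and Map4k4 ran from -3.4 to -1.04 and kept it in 5. The ribosomal protein genes differed between the same groups in other kept cells too, where Rpl37a stood at 1790.0 and 4519 in control isotype and CD40 and at 2690.0 and 2172 in B2m-null isotype and CD40.

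A mouse stood far from the others of its group in 3 of 64 sets tested, a rate near the 1 in 20 that chance gives. The sets were shares and the genes named by the rule, and for genes only the isotype groups had enough mice. The rate thus does not speak for other genes, such as Hbb-bs, or for gene levels in CD40 mice. Ptgs2 was lowest in control isotype pool 2 mouse 2, at 79.1 against 128.9 in the next mouse. Vgll4 was lowest in B2m-null isotype pool 2 mouse 1, at 52.5 against 101.0. Eno3 was lowest in B2m-null isotype pool 1 mouse 2, at 40.4 against 120.9.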

How the results depend on the processing

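Counts of called genes depended on the processing more than the directions of genes already called did. The CD40 effect in control tumours called 4 genes by mouse, against 14 with RLE, 30 with DESeq2, 11 with no filter, 7 with limma-voom and a lane block and 0 with pools as the unit (edgeR, 641 at an unadjusted p under 0.05). The effect in B2m-null tumours called 85, against 222 with no filter and 14 with pools. Genotype under CD40 called 3, against 9 with RLE, 28 with DESeq2, 25 with no filter, 0 with limma-voom (252 unadjusted) and 0 with pools (577 unadjusted). The difference of CD40 effects called 9, against 20 with RLE, 37 with DESeq2, 16 with 5 cells a mouse and 0 with pools (646 unadjusted). Genotype under isotype called 10, against 26 with DESeq2, 64 with no filter and 4 with pools. It also gave 17 with 20 cells a mouse, 6 with 5 cells, 33 with stricter members and 19 with thinned members. In fits without 1 mouse or pool the CD40 counts ran from 1 to 13 (control) and 16 to 134 (B2m-null), the genotype counts from 0 to 22 (isotype) and 0 to 10 (CD40), the difference from 0 to 31, and the cDC1 comparison from 0 to 16 and 3 to 10 in control and B2m-null tumours. RLE gave 6 for the cDC1 comparison in control tumours, and 20 cells a class could not be fitted.

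The replicate block gave 5 genes for genotype under isotype and 78 for CD40 in B2m-null tumours. Deviations of same-numbered pools correlated at 0.186, 0.079 and 0.101. With 2 pools a group, and 15 members in B2m-null CD40 pool 2, these values cannot decide whether the numbers pair the samples. Irf8 and Il2ra under isotype were not called with the block. The block was fitted without control CD40, whose lanes are technical replicates.

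For shares of kept cells the difference without 1 mouse ran from -2.251 to -1.881 (CD40, control), -2.803 to -1.727 (CD40, B2m-null), -0.106 to 0.970 (genotype, isotype) and 0.135 to 0.334 (genotype, CD40). For shares of conventional dendritic cells it ran from -18.2 to -2.18, -4.72 to 13.3, -3.19 to 10.3 and 7.07 to 25.8. Ptprc-bearing cells as the denominator gave -1.61 for CD40 in B2m-null tumours. Stricter members gave -0.219 and -4.64 for genotype under isotype in the 2 shares, and pools as the unit gave -2.17 for the share within dendritic cells under CD40 in B2m-null tumours. The CD40 gaps in percentage points narrowed with stricter members. These were 543 of the 1260 members, and a smaller share of kept cells in every group. They made up 0.575 to 1.64% of kept cells in control isotype mice and 0.0338 and 0.0633% in control CD40 mice. In B2m-null tumours they made up 0.293 to 1.39% in isotype and 0.0601 to 0.296% in CD40 mice, which overlap. The cause of these changes was not tested. Of 1275 values for 55 calls, each a gene in a comparison, 1273 kept their direction and 975 (76.5%) their call. These genes were picked by their calls in the same counts, and most alternatives reuse the same mice. Their directions were therefore likely to hold, and the count is no independent check. The reversed ones were Eno3, at 0.05 with 5 cells a mouse and 0.23 with pools as the unit. Few CD40 members (86) limit what could be called in them.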

Other observations

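Members differed from pool to pool in genes that are tied to other cells. The summed level of 8 mast cell and basophil markers was 243.3 CPM in control isotype pool 1 and at most 8.31 in the other pools, and among the mice of that pool it was 813.9 in mouse 2 and 0 in mice 1 and 3. The summed level of 11 fibroblast and endothelial markers was 1127 in B2m-null isotype pool 1 and 17.9 to 534.4 elsewhere, but 30.6 and 71.2 in the 2 mice of that pool that entered the fits. Of 8 neutrophil markers only Ly6g was at 0 over all members. Their summed level was 131.0 CPM in isotype members and 121.3 in other kept isotype cells. By isotype pool it was 15.6 and 113.3 in control and 136.5 and 231.3 in B2m-null tumours.

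Ccl5, a chemokine that draws T cells, had a variance 16.9 times its mean among isotype members, and was seen in 78.1% of the 834 members thinned to 2000 UMIs, with 33.3% holding at least 10 UMIs. Its level was 4146 in members, 76.8 in cDC1, 119.9 in cDC2 and 1213 in T cells.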
